A study of Mus musculus with 22 samples.

Results

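The 8 genes described here encode the dual oxidases Duox1 and Duox2, their maturation factors Duoxa1 and Duoxa2, the oxidase Nox4, and the phagocyte oxidase subunits Cybb, Cyba and Ncf1. They were chosen by symbol, and all 8 were found among the 36555 genes of the RNA table. Duox1 and Duoxa1 were put forward because they stood out in hbHep livers in these same data, so their hbHep values are a description and carry no test.

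NADPH oxidases pass electrons from NADPH across a membrane to oxygen. Dual oxidases release hydrogen peroxide at the cell surface and are best known from thyroid and airway epithelium, and each needs its partner Duoxa protein to leave the endoplasmic reticulum. Nox4 makes hydrogen peroxide without cytosolic activators and is known in liver from hepatocytes and stellate cells. The phagocyte oxidase makes superoxide in macrophages and neutrophils from a membrane pair, Cybb and Cyba, that is switched on by cytosolic subunits such as Ncf1.

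The study measured total RNA of mouse liver and hepatoblastoma, a liver tumor of early childhood modelled here in mice, in 4 groups. The first group was liver of 3 hbHep mice, a name the labels do not spell out, taken at days 121, 114 and 117, with 2 libraries per mouse that were averaged and with the genotype FAH Delta Exon 5. The second was 4 tumors taken from a mouse 6 days off doxycycline, with YAP1 off (day 6 tumors), and the third 4 tumors taken from one kept on it, with YAP1 on (YAP1on tumors). Both are of a B6N.FVB(Cg) strain with the transgene Tg(CAG-rtTA3)4288Slowe/J, in which the CAG promoter drives the rtTA3 transactivator. The fourth was liver of 3 FAH Delta Exon 5 mice on NTBC, a drug that blocks tyrosine breakdown upstream of the missing enzyme (FAH liver). Each tumor group carries 1 mouse code, so the effects of the mouse and of the treatment cannot be told apart, and the tumor strain differs from the FAH-deleted genotype of hbHep and FAH livers. The labels do not say how hbHep livers arose or how many host cells they hold. Open chromatin was mapped in 1 library each of a YAP1on tumor, of cells 14, 33 and 64 days after YAP1 was turned off (hb Heps in the design text) and of WT liver.

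Values are read as abundances in scaled reads per base, a unit that the sources used here do not define. On that reading they are set against gene length and comparable between genes, and the ratios and level ranks between genes below rest on it. Their depth in reads is unknown. The deposited values summed to between 15990316 and 42119595 per library. Yap1 had 1095 to 1248 in day 6 tumors, against 5263 to 10748 in YAP1on tumors. Fah itself was present in all groups, at 669 to 1158 in hbHep livers and 1548 to 1834 in FAH livers, but a value over the whole gene does not check the loss of exon 5. The hepatocyte markers, 8 genes that include Alb and Apoa1, were detected in every group, with summed levels of 370484 to 585517 in hbHep livers, 560564 to 701742 in day 6 tumors, 225457 to 392446 in YAP1on tumors and 1103545 to 1369419 in FAH livers. All samples are bulk tissue, in which fewer cells of a type and less RNA per cell cannot be told apart.

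**Figure D1:**
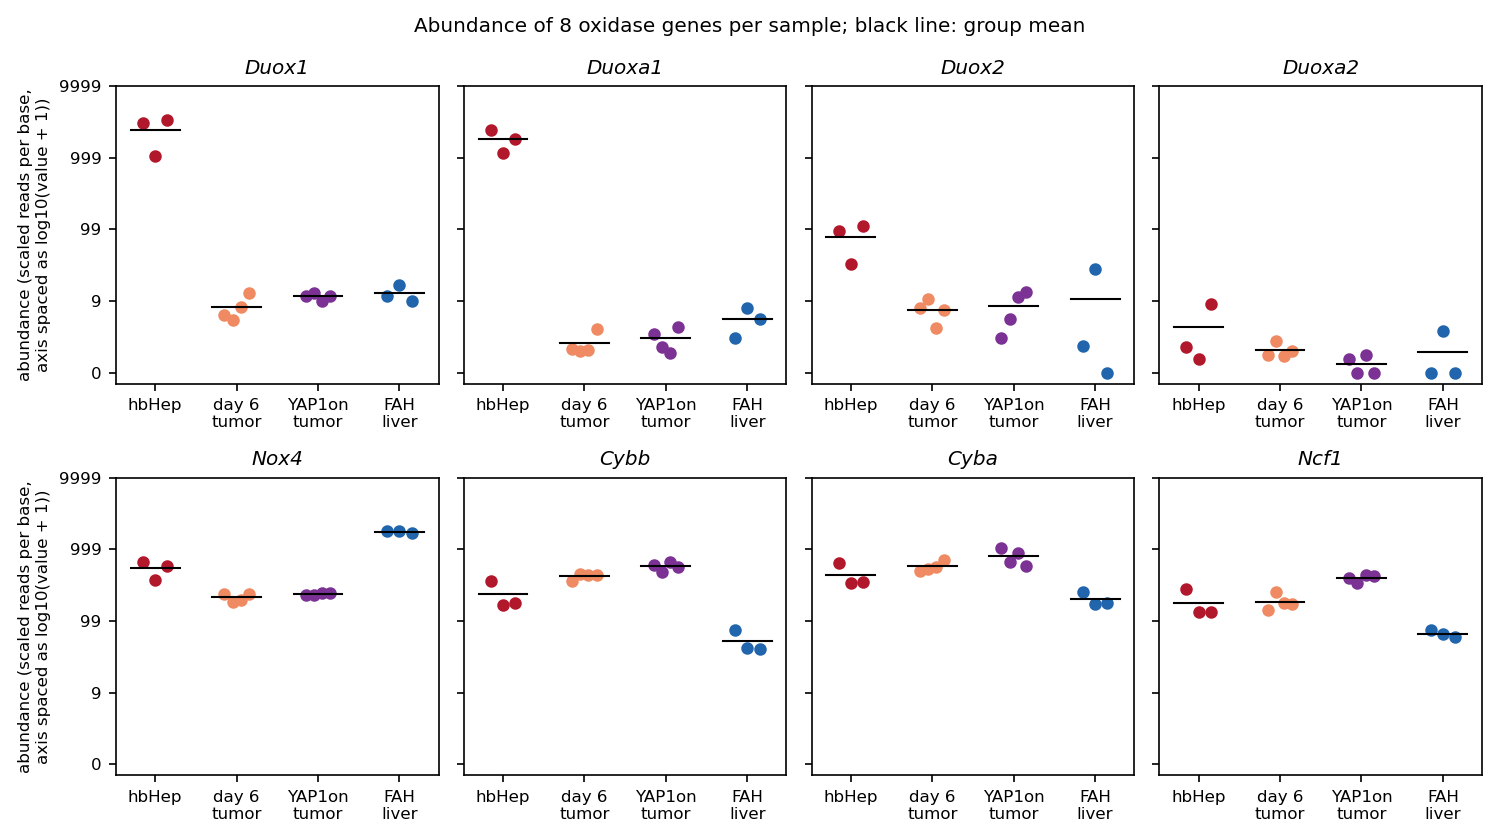
Abundance of each gene in every sample (y axis, scaled reads per base, spaced as log10(value + 1)), by group along the x axis, with the group mean as a black line. The 3 hbHep livers stand between 1040 and 3329 for Duox1 and between 1159 and 2469 for Duoxa1, while no other sample passes 15.9 for Duox1 or 7.06 for Duoxa1.

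Duox1 and Duoxa1 were abundant in hbHep livers and at 15.9 or less in all other samples. The genes sit head to head on mouse chromosome 2. Duox1 spans chr2:122313010-122347972 on the plus strand and Duoxa1 spans chr2:122303540-122313763 on the minus strand, so their annotated bodies share 754 bases. Whether the counting used strand is not given in the sources used here, so reads from the shared bases cannot be assigned to one of them with certainty. The windows from 250 bases before to 50 bases after each RefSeq start (build GRCm38.p6) are shown because they belong to the pair that stood out. Capitals mark bases that lie inside an interval of open chromatin at day 64.
Duoxa1 promoter, chr2:122313681-122313980, minus strand: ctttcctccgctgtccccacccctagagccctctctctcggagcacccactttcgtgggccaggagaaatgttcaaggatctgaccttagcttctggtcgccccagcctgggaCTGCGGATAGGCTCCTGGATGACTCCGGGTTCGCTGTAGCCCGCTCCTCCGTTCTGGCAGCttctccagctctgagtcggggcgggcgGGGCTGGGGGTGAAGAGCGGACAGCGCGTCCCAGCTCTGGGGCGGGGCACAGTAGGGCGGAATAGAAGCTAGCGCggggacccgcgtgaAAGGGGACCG
Duox1 promoter, chr2:122315422-122315721, plus strand: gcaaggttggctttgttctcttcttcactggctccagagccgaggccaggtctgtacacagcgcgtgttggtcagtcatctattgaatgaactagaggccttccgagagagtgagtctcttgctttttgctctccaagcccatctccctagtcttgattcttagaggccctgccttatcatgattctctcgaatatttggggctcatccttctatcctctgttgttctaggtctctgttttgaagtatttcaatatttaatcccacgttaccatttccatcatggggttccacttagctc
In the Duoxa1 window 146 of 300 bases were open at day 64, and in the Duox1 window 0 of 300. The RefSeq start of Duox1 lies inside its annotated body, downstream of the bases it shares with Duoxa1. Its window therefore does not describe the 5′ end of the annotated body. That end lies in a stretch covered for 54.0% at day 64.

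Duox1, which makes hydrogen peroxide at the cell surface, had 3015, 1040 and 3329 in the 3 hbHep livers. It had 5.39, 4.37, 7.23 and 12.1 in day 6 tumors, 10.7, 12.1, 8.98 and 10.6 in YAP1on tumors, and 10.9, 15.9 and 9.08 in FAH livers. The lowest hbHep liver therefore stood far above every other sample, and the other 3 groups overlapped one another. The mean was 2461 ± 1240 in hbHep livers (SD, n = 3) and 11.9 ± 3.51 in FAH livers (SD, n = 3), a difference of 7.43 ± 0.41 (SE) on the log2(value + 1) scale that was used for all differences below and that understates changes of low genes. The difference of hbHep livers was 7.57 ± 0.38 against YAP1on tumors and 8.13 ± 0.38 against day 6 tumors.

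Duoxa1, the factor that carries Duox1 to the surface, had 2469, 1159 and 1812 in hbHep livers. It had 1.15, 1.02, 1.09 and 3.03 in day 6 tumors, 2.51, 1.29, 0.876 and 3.41 in YAP1on tumors, and 2.08, 7.06 and 4.58 in FAH livers. Again only the hbHep livers were high, and mouse 2 was the lowest of them for both genes. The differences were 8.39 ± 0.45 against FAH livers, 9.24 ± 0.42 against YAP1on tumors and 9.46 ± 0.42 against day 6 tumors. Among 17953 genes tested, Duoxa1 had the 2nd and Duox1 the 4th highest difference of hbHep over FAH livers, the 18th and the 36th over YAP1on tumors, and the 14th and the 24th over day 6 tumors. These ranks describe how the pair was chosen.

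The 2 libraries of each hbHep mouse kept the order of the mice for Duox1 only in part. Mouse 1 had 3181 and 2848, mouse 2 had 951 and 1128, and mouse 3 had 3080 and 3578 for Duox1. For Duoxa1 the pairs were 2548 and 2389 in mouse 1, 988 and 1331 in mouse 2, and 1857 and 1767 in mouse 3. Mouse 2 was the lowest in every library of both genes, while mice 1 and 3 changed places between libraries for Duox1 and not for Duoxa1. The ratio of Duoxa1 to Duox1 was 0.82, 1.12 and 0.54 in the 3 hbHep livers, so the partner was not at a fixed share of the oxidase. In mean abundance Duox1 ranked 1480th and Duoxa1 2082nd among 25934 genes above 0 in hbHep livers, against 15625th and 18251st among 27200 such genes in FAH livers.

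Outside hbHep livers the rule used no difference, and 3 comparisons could be tested with limma over all 17953 genes. Duox1 passed in none of them. Its difference was -0.57 ± 0.35 for day 6 against YAP1on tumors (adjusted p = 0.288), -0.13 ± 0.38 for YAP1on tumors against FAH livers (adjusted p = 0.774) and -0.70 ± 0.38 for day 6 tumors against FAH livers (adjusted p = 0.125). The last interval ran between -1.51 and 0.12, and without day 6 tumor 4 the difference was -0.94 with an adjusted p of 0.0446. Duoxa1 passed the filter, a value of at least 10 in 3 samples, through hbHep livers alone, and its other 11 samples were at 7.06 or less, so no call is made for it between them. Its fitted differences there were -0.22 ± 0.39 for day 6 against YAP1on tumors, -0.86 ± 0.42 for YAP1on tumors against FAH livers and -1.07 ± 0.42 for day 6 tumors against FAH livers, and the groups overlapped in each.

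Duox2, the second dual oxidase, was also highest in hbHep livers but at a small part of the level of Duox1. It had 93.2, 32.2 and 109 in hbHep livers, 6.94, 9.60, 3.18 and 6.47 in day 6 tumors, 2.01, 4.68, 10.5 and 12.6 in YAP1on tumors, and 1.36, 27.3 and 0 in FAH livers. The hbHep livers did not overlap any other group, although FAH liver 2 came close to hbHep mouse 2. Duox2 rose in hbHep livers by 4.11 ± 0.93 against FAH livers (adjusted p = 0.00295), by 3.29 ± 0.87 against YAP1on tumors (adjusted p = 0.005) and by 3.29 ± 0.87 against day 6 tumors (adjusted p = 0.00639). The first value was 5.51 without FAH liver 2 and 3.10 without FAH liver 3, and passed both times. FAH liver 2 also had more genes above 0 than the other FAH livers, 25605 against 21798 and 21065. The ratio of Duox2 to Duox1 was 0.03 in each of the 3 hbHep livers. Duox1 and Duox2 are paralogs whose shared reads kallisto divides by estimation, so a Duox2 value at a constant share of a much higher Duox1 is uncertain. Between day 6 and YAP1on tumors Duox2 differed by -0.01 ± 0.81 (adjusted p = 0.999), with an interval between -1.73 and 1.72. Against FAH livers the difference was 0.82 ± 0.87 for YAP1on tumors (adjusted p = 0.415) and 0.82 ± 0.87 for day 6 tumors (adjusted p = 0.429). Both passed without FAH liver 2, at 2.22 for YAP1on tumors (adjusted p = 0.00805) and 2.21 for day 6 tumors (adjusted p = 0.00927), and both turned negative without FAH liver 3, at -0.19 for YAP1on tumors and -0.20 for day 6 tumors.

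Duoxa2, the partner of Duox2, did not pass the filter and was not tested. It had 1.30, 0.571 and 8.14 in hbHep livers, 0.771, 1.75, 0.723 and 1.01 in day 6 tumors, 0.536, 0, 0.748 and 0 in YAP1on tumors, and 0, 2.88 and 0 in FAH livers. All groups overlapped. The highest value, of hbHep mouse 3, came from libraries at 14.8 and 1.51.

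The genes nearest to the pair on chromosome 2 did not share its pattern in full. Of the 3 annotated genes on each side of the Duox cluster, Shf and Sord were tested. Shf, which encodes an SH2-domain adaptor and starts beyond the end of Duox1, had 875 to 962 in hbHep livers, 223 to 263 in day 6 tumors, 161 to 224 in YAP1on tumors and 257 to 293 in FAH livers. Shf rose in hbHep livers by 1.73 ± 0.13 against FAH livers (adjusted p = 2.23e-07), by 2.23 ± 0.13 against YAP1on tumors (adjusted p = 2.64e-09) and by 1.93 ± 0.13 against day 6 tumors (adjusted p = 1.73e-08). Sord, sorbitol dehydrogenase on the other side of the cluster, had 33910 to 48880 in hbHep livers and 35570 to 50980 in FAH livers, with a difference of 0.05 ± 0.21 (adjusted p = 0.882). It had 25820 to 31900 in day 6 tumors and 11750 to 15570 in YAP1on tumors, and rose in hbHep livers by 0.51 ± 0.20 against day 6 tumors (adjusted p = 0.0438) and by 1.67 ± 0.20 against YAP1on tumors (adjusted p = 4.35e-06). Gm14058 and Rps12-ps10, both pseudogenes, were at or near 0 throughout, and Gm39918 and the tRNA gene n-THgtg4 were not analysed here.

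The genes whose centred log2(value + 1) pattern over the 14 samples was nearest to that of Duox1 were Duoxa1, Bpifa5, Acsm4, Igf2 and Apcdd1, at root mean square differences of 0.73, 0.84, 0.85, 0.94 and 0.98. The median over all genes tested was 3.26. For Duoxa1 the nearest were Duox1, Acsm4, Igf2, Bpifa5 and Ren1, at 0.73, 0.75, 1.26, 1.37 and 1.40, where the median was 3.82. Igf2, a fetal growth factor, averaged 4985 in hbHep livers, 43.5 in day 6 tumors, 38.6 in YAP1on tumors and 27.2 in FAH livers. Acsm4, an acyl-CoA synthetase of the medium-chain family, averaged 666 in hbHep livers, 2.10 in day 6 tumors, 0.761 in YAP1on tumors and 4.34 in FAH livers. This likeness rests on the contrast between hbHep livers and all other samples, by which the pair was chosen.

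The receptors and transcription factors known from other tissues to drive dual oxidase genes formed a list of 12, of which 10 were tested. In hbHep against FAH livers 4 were higher and 1 lower, with a median difference of 0.42, against -0.01 over all genes, of which 36.9% passed, 19.9% higher and 17.1% lower. Il22ra1, a subunit of the interleukin-22 receptor, rose by 2.78 (adjusted p = 6.85e-07), and Ifngr1, of the interferon-gamma receptor, by 1.17 (adjusted p = 0.000103). Il13ra1, of the interleukin-13 receptor, fell by 1.56 (adjusted p = 9.29e-06). Against YAP1on tumors 3 were higher and 4 lower, where 55.1% of all genes passed, and against day 6 tumors 1 was higher and 4 lower, where 45.8% passed. In these comparisons 5, 7 and 5 of the 10 genes passed. The 7 and the 5 against tumors include Pax8, for which no call is made. No excess over all genes is therefore read from these counts, and none was tested. Pax8, a thyroid and kidney transcription factor, had 22.0 to 28.0 in hbHep livers, 1.94 to 8.44 in day 6 tumors, 1.39 to 3.01 in YAP1on tumors and 2.49 to 27.8 in FAH livers. Without the hbHep livers, where it is high, Pax8 would not have passed the filter, so no call is made for it. The counts against both kinds of tumor include it among the higher genes. Its fitted differences in hbHep livers were 3.01 against YAP1on tumors and 2.29 against day 6 tumors, and its hbHep and FAH livers overlapped. Il13ra1 was lower in hbHep livers in these comparisons too, by differences of -1.73 against YAP1on tumors (adjusted p = 6.42e-07) and -1.70 against day 6 tumors (adjusted p = 1.5e-06).

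Nox4 ran the other way among livers. It was highest in FAH livers, intermediate in hbHep livers and lowest in both kinds of tumor. Its promoter is shown because most of it lay in open chromatin at day 64, 268 of 300 bases, marked by capitals (RefSeq, GRCm38.p6).
Nox4 promoter, chr7:87246399-87246698, plus strand: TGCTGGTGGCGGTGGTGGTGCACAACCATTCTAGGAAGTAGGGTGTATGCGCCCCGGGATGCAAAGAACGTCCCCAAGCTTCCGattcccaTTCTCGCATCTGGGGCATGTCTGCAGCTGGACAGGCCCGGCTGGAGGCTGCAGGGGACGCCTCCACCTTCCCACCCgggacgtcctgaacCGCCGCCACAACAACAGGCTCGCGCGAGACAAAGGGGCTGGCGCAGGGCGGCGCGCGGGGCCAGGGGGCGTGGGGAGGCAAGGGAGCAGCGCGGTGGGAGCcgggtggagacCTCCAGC
Nox4 had 667, 369 and 579 in hbHep livers, 236, 181, 195 and 233 in day 6 tumors, 229, 230, 248 and 246 in YAP1on tumors, and 1793, 1813 and 1666 in FAH livers. The FAH livers were all above the hbHep livers, and these were all above the tumors.

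In hbHep livers Nox4 fell by 1.75 ± 0.18 against FAH livers (adjusted p = 2.99e-06) and rose by 1.13 ± 0.17 against YAP1on tumors (adjusted p = 3.93e-05) and by 1.31 ± 0.17 against day 6 tumors (adjusted p = 1.78e-05). In tumors it fell by 2.88 ± 0.17 with YAP1 on and by 3.06 ± 0.17 at day 6, both against FAH livers (adjusted p = 1.22e-09 each). Day 6 and YAP1on tumors differed by -0.18 ± 0.15 (adjusted p = 0.456), with an interval between -0.51 and 0.15, and were the only neighbours in the order of levels that did not differ. Those of the 8 hepatocyte markers that passed had the direction of Nox4 in some comparisons and not in others. Against FAH livers 0 were higher and 5 lower in hbHep livers, 0 higher and 7 lower in YAP1on tumors, and 0 higher and 4 lower in day 6 tumors. Over all genes 19.9% were higher and 17.1% lower in hbHep livers, 34.4% and 33.5% in YAP1on tumors, and 31.6% and 31.0% in day 6 tumors. In hbHep livers 3 were higher and 1 lower against YAP1on tumors, and 2 were higher and 3 lower against day 6 tumors, where Nox4 rose. Over all genes 28.8% were higher and 26.3% lower against YAP1on tumors, and 24.1% and 21.7% against day 6 tumors. In day 6 against YAP1on tumors, where Nox4 did not pass, 5 were higher and 0 lower, beside 12.8% and 10.8% of all genes. Of the 12 markers of stellate cells and fibroblasts, hbHep livers had 2 higher and 0 lower against FAH livers, 0 higher and 5 lower against YAP1on tumors, and 0 higher and 6 lower against day 6 tumors. Against FAH livers 6 were higher and 0 lower in YAP1on tumors and likewise in day 6 tumors. In day 6 against YAP1on tumors 0 were higher and 4 lower. The shares over all genes given for the hepatocyte markers stand beside these counts too. Their summed level was 6110 to 11476 in hbHep livers, 11076 to 16614 in day 6 tumors, 8777 to 16545 in YAP1on tumors and 7633 to 10713 in FAH livers. The part of either cell type in the Nox4 result was not tested. Among the 5 genes nearest to Nox4 over the 14 samples were Mtmr7, Map2k6, Slc35d2 and Cebpb, at root mean square differences of 0.26, 0.31, 0.33 and 0.34, where the median over all genes was 1.30.

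The 3 phagocyte subunits were highest in YAP1on tumors and lowest in FAH livers. Cybb is the catalytic core of the enzyme, and its promoter is shown because none of its 300 bases lay in open chromatin at day 64, so it has no capitals (RefSeq, GRCm38.p6).
Cybb promoter, chrX:9469275-9469574, minus strand: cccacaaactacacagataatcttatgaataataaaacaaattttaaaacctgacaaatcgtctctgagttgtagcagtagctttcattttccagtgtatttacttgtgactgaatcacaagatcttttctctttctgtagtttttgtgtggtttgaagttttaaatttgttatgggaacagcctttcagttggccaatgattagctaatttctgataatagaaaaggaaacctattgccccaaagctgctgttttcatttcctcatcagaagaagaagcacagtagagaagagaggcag
Cybb had 363, 166 and 178 in hbHep livers, 359, 448, 439 and 434 in day 6 tumors, 597, 486, 666 and 560 in YAP1on tumors, and 74.8, 40.9 and 39.4 in FAH livers. Among these groups, hbHep livers and day 6 tumors were the only pair that overlapped, through hbHep mouse 1. The means were 236 ± 110 in hbHep livers (SD, n = 3), 420 ± 41.0 in day 6 tumors and 577 ± 75.2 in YAP1on tumors (SD, n = 4 each), and 51.7 ± 20.0 in FAH livers (SD, n = 3).

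Cybb rose in hbHep livers against FAH livers by 2.14 ± 0.27 (adjusted p = 2.6e-05), and fell in them by 1.38 ± 0.26 against YAP1on tumors (adjusted p = 0.000337) and by 0.92 ± 0.26 against day 6 tumors (adjusted p = 0.00856). Against FAH livers it rose by 3.51 ± 0.26 in YAP1on tumors (adjusted p = 1.28e-08) and by 3.06 ± 0.26 in day 6 tumors (adjusted p = 1.06e-07). The values of day 6 and YAP1on tumors did not overlap, and their difference of -0.45 ± 0.24 did not pass (adjusted p = 0.194). With only these tumors in the fit it was -0.46 and passed (adjusted p = 0.0109).

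Cyba is the membrane partner that Cybb and Nox4 both need. It had 642, 337 and 348 in hbHep livers, 495, 534, 563 and 704 in day 6 tumors, 1032, 660, 891 and 583 in YAP1on tumors, and 250, 169 and 175 in FAH livers. FAH livers were below all other samples, and the other groups overlapped. In hbHep livers Cyba rose by 1.11 ± 0.26 against FAH livers (adjusted p = 0.00341) and fell by 0.87 ± 0.24 against YAP1on tumors (adjusted p = 0.00667), and it differed by -0.43 ± 0.24 from day 6 tumors (adjusted p = 0.159). The last difference was -0.73 without hbHep mouse 1 (adjusted p = 0.0193). Against FAH livers Cyba rose by 1.98 ± 0.24 in YAP1on tumors (adjusted p = 3.07e-06) and by 1.54 ± 0.24 in day 6 tumors (adjusted p = 5.42e-05). Day 6 and YAP1on tumors differed by -0.44 ± 0.22 (adjusted p = 0.182), with an interval between -0.91 and 0.04. The level of Cyba relative to Cybb was 1.77, 2.04 and 1.95 in hbHep livers, between 1.19 and 1.62 in day 6 tumors, between 1.04 and 1.73 in YAP1on tumors, and between 3.35 and 4.46 in FAH livers, where Nox4 is the abundant oxidase.

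Ncf1, the cytosolic organizer known as p47phox, was the member that changed between tumors. It had 139, 255, 175 and 172 in day 6 tumors, against 391, 340, 431 and 418 in YAP1on tumors, with no overlap. Ncf1 fell at day 6 by 1.12 ± 0.23 (adjusted p = 0.00183), and passed in every fit that left out 1 sample, at differences between -1.28 and -0.99. In hbHep livers it had 274, 132 and 131, and in FAH livers 73.7, 63.9 and 58.7. Ncf1 rose in hbHep livers by 1.35 ± 0.26 against FAH livers (adjusted p = 0.000878) and fell in them by 1.22 ± 0.24 against YAP1on tumors (adjusted p = 0.00059), and it differed by -0.11 ± 0.24 from day 6 tumors (adjusted p = 0.747). Against FAH livers it rose by 2.58 ± 0.24 in YAP1on tumors (adjusted p = 1.96e-07) and by 1.46 ± 0.24 in day 6 tumors (adjusted p = 9.89e-05).

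**Figure D2:**
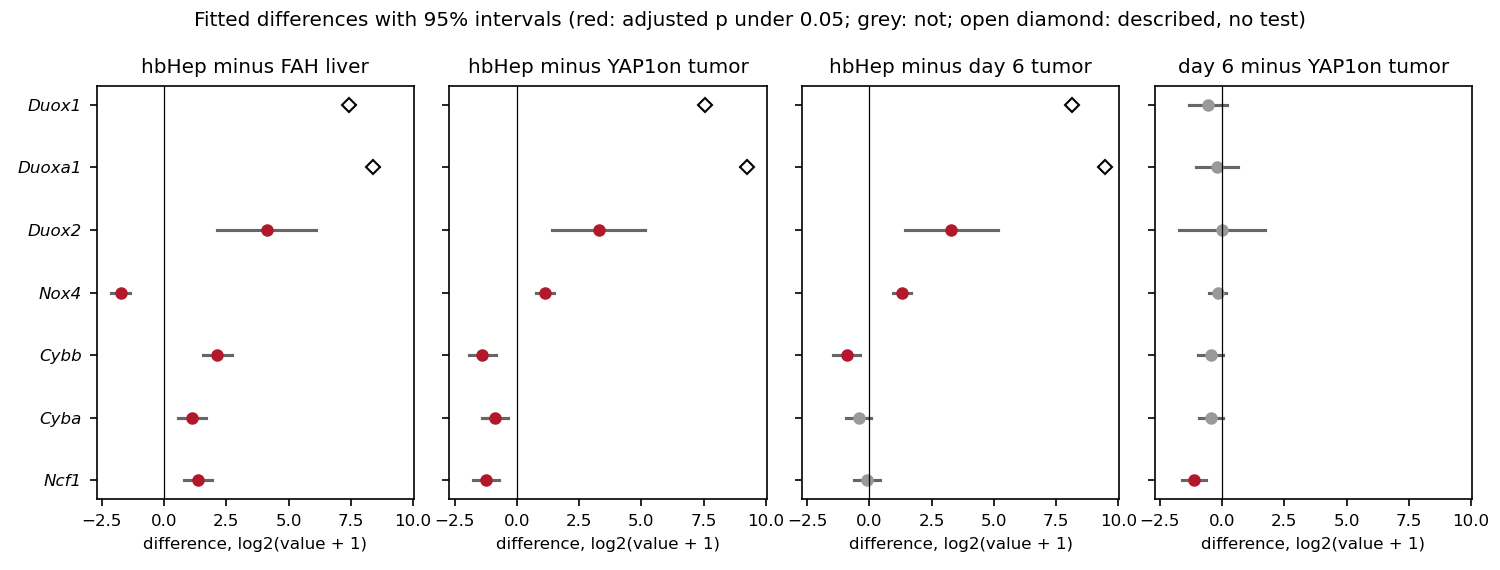
Fitted differences on the log2(value + 1) scale (x axis) of the 7 genes that passed the filter (rows) in 4 comparisons, with 95% intervals, in red where the adjusted p was under 0.05. Duox1 and Duoxa1 are drawn in hbHep comparisons as open diamonds with no interval, and Ncf1, at -1.12, is the gene in red between day 6 and YAP1on tumors.

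Counted over the members, hbHep against FAH livers had 4 higher and 1 lower of the 5 that were tested, where 36.9% of all genes passed, 19.9% higher and 17.1% lower. Against YAP1on tumors 2 were higher and 3 lower of 5, where 55.1% of all genes passed, 28.8% higher and 26.3% lower. Against day 6 tumors 2 were higher and 1 lower of 5, where 45.8% of all genes passed, 24.1% higher and 21.7% lower. Between day 6 and YAP1on tumors 1 of 7 was lower and 0 higher, where 23.6% of all genes passed, 12.8% higher and 10.8% lower. For YAP1on tumors against FAH livers 3 were higher and 1 lower of 7, where 67.9% of all genes passed, 34.4% higher and 33.5% lower. For day 6 tumors against FAH livers 3 were higher and 2 lower of 7, where 62.7% of all genes passed, 31.6% higher and 31.0% lower. The counts over 7 genes include Duoxa1, which makes 1 of the 2 lower in day 6 tumors against FAH livers and for which no call is made there. All 5 genes tested passed in hbHep livers against FAH livers and against YAP1on tumors, a higher share than over all genes, and that excess was not tested because the genes were chosen with results known. Comparisons with FAH livers share those samples.

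The other subunits and partners of NADPH oxidases, 13 genes of which 11 were tested, gave 4 higher and 1 lower in hbHep against FAH livers. Their median was 0.16, against -0.01 over all genes, of which 19.9% were higher and 17.1% lower. Among those higher were Ncf4, a cytosolic phagocyte subunit, at 2.22 (adjusted p = 3.04e-05), Rac2, the small GTPase of blood cells, at 1.35 (adjusted p = 0.000661), and Nrros, which promotes the degradation of Cybb, at 1.10 (adjusted p = 0.000308). In day 6 against YAP1on tumors 1 was higher and 1 lower, where 12.8% of all genes were higher and 10.8% lower. The higher was Noxa1, an activator of Nox1, by 0.68 (adjusted p = 0.02). Against YAP1on tumors hbHep livers had 1 higher and 3 lower, where 28.8% of all genes were higher and 26.3% lower. The higher was Poldip2, a partner of Nox4, at 0.85 (adjusted p = 2.95e-05). The remaining oxidases were low in every sample, Nox1 at 1.03 to 7.03 and Nox3 at 0 to 2.88.

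Markers of macrophages and Kupffer cells moved with the phagocyte subunits in part. Their summed level over 15 genes was 34296, 15200 and 12622 in hbHep livers, 20441 to 26033 in day 6 tumors, 32973 to 45997 in YAP1on tumors and 5975 to 10974 in FAH livers. In hbHep against FAH livers 11 of the 15 were higher and 1 lower, with a median of 1.49, where 19.9% of all genes were higher and 17.1% lower. The lower one was Cd163, at -1.22 (adjusted p = 0.0219). Against YAP1on tumors 0 were higher and 8 lower in hbHep livers, where 28.8% of all genes were higher and 26.3% lower. Against day 6 tumors, where Cybb fell, 2 were higher and 4 lower in hbHep livers, beside 24.1% and 21.7% of all genes. The higher were Cd163, a scavenger receptor, at 1.81 (adjusted p = 0.000861) and Marco, another, at 1.84 (adjusted p = 0.00451). In day 6 against YAP1on tumors 3 of 15 were lower and 0 higher, where 10.8% of all genes were lower, namely Cd163 at -1.77 (adjusted p = 0.00112), Csf1r at -1.15 (adjusted p = 0.00143) and Fcgr1 at -0.89 (adjusted p = 0.0237). None of the 15 was at 0 in all samples of a group. Mouse 1 was the highest hbHep liver for the marker sum, for Cybb, Cyba and Ncf1, and also for Duoxa1 and Nox4. For Duox1 it was second to mouse 3 in the mean of the libraries, and the order of the 2 mice changed between libraries.

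Set against 1000 units of that marker sum, Cybb had 10.6, 10.9 and 14.1 in hbHep livers, 17.2 to 18.1 in day 6 tumors, 13.0 to 16.2 in YAP1on tumors and 5.93 to 6.84 in FAH livers. These ratios spread less between groups than Cybb itself, and those of FAH livers remained the lowest. Ncf1 had 7.98, 8.66 and 10.4 in hbHep livers, 6.80 to 9.80 in day 6 tumors, 8.49 to 12.1 in YAP1on tumors and 6.72 to 10.7 in FAH livers by the same measure, so all groups overlapped. Cyba had 18.7 to 27.6 in hbHep livers, 20.5 to 27.9 in day 6 tumors, 16.8 to 22.4 in YAP1on tumors and 22.8 to 28.3 in FAH livers. The part of macrophage content in the differences of these genes was not tested.

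**Figure D3:**
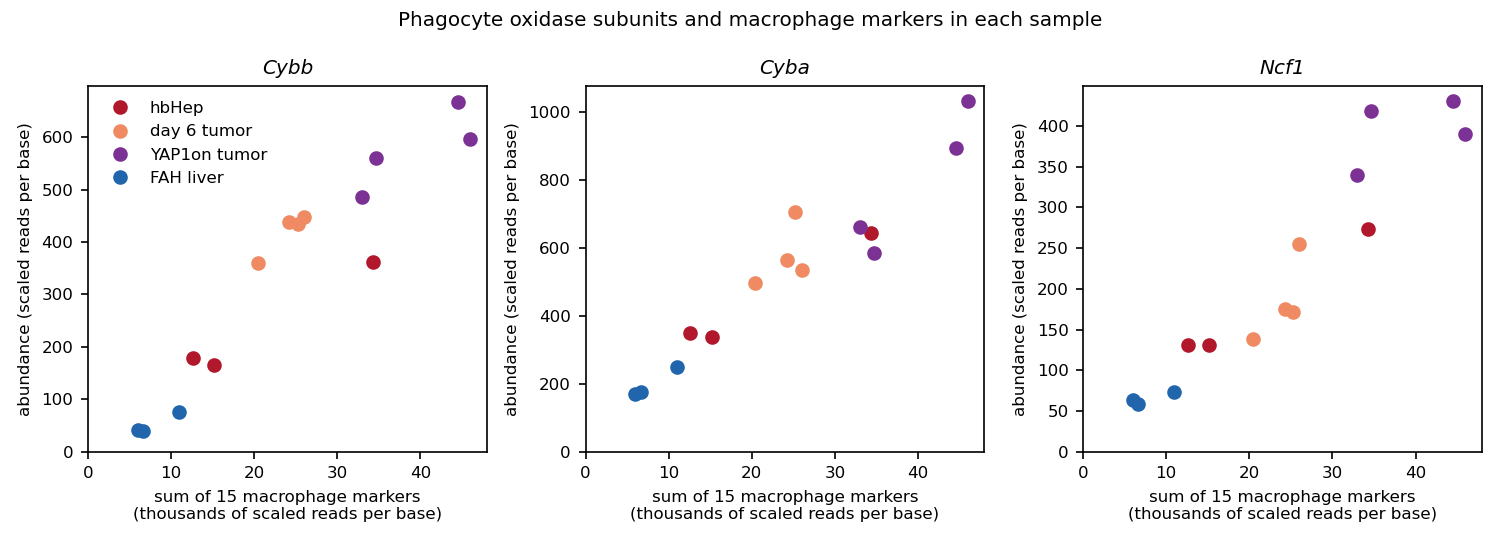
Abundance of Cybb, Cyba and Ncf1 (y axes) against the summed abundance of 15 macrophage markers (x axis) in each sample, colored by group, all in scaled reads per base. YAP1on tumors have sums of 32973 to 45997 and FAH livers 5975 to 10974, the low end of both axes. The hbHep liver of mouse 1, at 34296, lies among YAP1on tumors on the x axis, and for Cyba YAP1on tumor 4, at 583, lies below it, at 642.

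Neutrophil markers had the same order of group medians as macrophage markers, at 283 in hbHep livers, 1736 in day 6 tumors, 1870 in YAP1on tumors and 158 in FAH livers, but the ranges of both tumor groups overlapped. Their summed level over 11 genes was 249 to 399 in hbHep livers, 1201 to 3599 in day 6 tumors, 946 to 2941 in YAP1on tumors and 155 to 190 in FAH livers. Between day 6 and YAP1on tumors limma called 0 of the 10 tested, and 0 had an unadjusted p under 0.05, while Ncf1 passed. Over all genes 23.6% passed. The genes nearest to Cybb over the 14 samples were Nckap1l, Epsti1, Ctss, Evi2a and Tlr13, at root mean square differences of 0.18, 0.22, 0.23, 0.23 and 0.23, where the median over all genes was 1.41. Ctss, a lysosomal protease of macrophages, averaged 1654 in hbHep livers, 2971 in day 6 tumors, 5175 in YAP1on tumors and 436 in FAH livers. B cell markers summed to 95.1 to 131 in hbHep livers, 205 to 425 in day 6 tumors, 120 to 248 in YAP1on tumors and 56.0 to 101 in FAH livers. Endothelial markers summed to 6170 to 12006 in hbHep livers, 8581 to 13443 in day 6 tumors, 6979 to 9215 in YAP1on tumors and 10764 to 12643 in FAH livers. Cholangiocyte markers, which include Spp1 and Sox9, summed to 1033 to 1429 in hbHep livers, 2569 to 7452 in day 6 tumors, 28655 to 37700 in YAP1on tumors and 656 to 730 in FAH livers.

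Enzymes and channels that remove or pass on the products of these oxidases formed a list of 18, all of which were tested. In hbHep against FAH livers 5 were higher and 6 lower, with a median of -0.41. Over all genes the median was -0.01, with 19.9% higher and 17.1% lower. Gpx3, a secreted glutathione peroxidase, rose by 3.95 (adjusted p = 2.23e-06), with 145 to 675 in hbHep livers and 13.7 to 24.3 in FAH livers. Gpx2, a second glutathione peroxidase, rose by 2.07 (adjusted p = 0.000373). Aqp8, a water channel that also passes hydrogen peroxide, fell by 2.76 (adjusted p = 1.22e-06), with 617 to 754 in hbHep livers and 3902 to 5084 in FAH livers, and Prdx4, a peroxiredoxin of the endoplasmic reticulum, fell by 1.34 (adjusted p = 0.000162).

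Against YAP1on tumors hbHep livers had 11 of these 18 genes higher and 1 lower, with a median of 1.07. Over all genes the median was -0.02, with 28.8% higher and 26.3% lower. Cat, catalase, rose by 2.48 (adjusted p = 1.67e-07), Sod2, the mitochondrial superoxide dismutase, by 2.19 (adjusted p = 3.07e-09), Gpx1 by 1.75 (adjusted p = 7.91e-05) and Aqp9 by 1.71 (adjusted p = 8.24e-07). Against day 6 tumors 10 were higher and 2 lower, beside 24.1% and 21.7% of all genes. Between day 6 and YAP1on tumors 8 were higher and 2 lower, beside 12.8% and 10.8% of all genes. The higher were led by Aqp8 at 1.38 (adjusted p = 0.000289), Aqp9 at 1.07 (adjusted p = 0.000125) and Cat at 1.03 (adjusted p = 0.00113). Against FAH livers 2 were higher and 12 lower in YAP1on tumors, and 2 were higher and 11 lower in day 6 tumors. Over all genes 34.4% were higher and 33.5% lower in YAP1on tumors, and 31.6% and 31.0% in day 6 tumors. Cat thus stood at 66470 to 80600 in hbHep livers, 22450 to 30320 in day 6 tumors, 9053 to 15200 in YAP1on tumors and 129800 to 148000 in FAH livers, with no overlap. Of 5 heme peroxidases, which use hydrogen peroxide, 3 were tested. Mpo, of neutrophil granules, had 4.76 to 13.0 in hbHep livers, 29.4 to 160 in day 6 tumors, 15.2 to 81.9 in YAP1on tumors and 1.09 to 3.62 in FAH livers. All 3 had lower fitted levels in hbHep livers than in tumors of either kind. Mpo and Epx passed the filter through the tumors, where they are high, so no call is made for them there. Their fitted differences against YAP1on tumors were -2.16 for Mpo and -2.50 for Epx. Pxdn, the third, fell in hbHep livers by 0.65 against YAP1on tumors (adjusted p = 0.0165) and by 0.78 against day 6 tumors (adjusted p = 0.00697). Over all genes 26.3% were lower against YAP1on tumors and 21.7% against day 6 tumors. In hbHep against FAH livers limma called 0 of 3, with 1 at an unadjusted p under 0.05, where 36.9% of all genes passed.

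Open chromatin did not enter the choice of the genes. The intervals of the YAP1on tumor were 5 to 162 bases wide and covered 19.7 Mb, while those of the other 4 lists reached 799 or 800 bases and covered 71.7, 57.5 and 55.8 Mb at days 14, 33 and 64 and 36.7 Mb in WT liver. The YAP1on list is therefore of another kind and is not compared. With 1 library per condition there is no replicate check and no test. Within 1000 bases of the Duoxa1 start, the intervals covered 169 bases at day 14, 185 at day 33, 630 at day 64 and 125 in WT liver. The median over 32851 gene starts was 196, 131, 137 and 75 bases in the same order, and at day 64 36.5% of starts had at least as much as Duoxa1. Within 250 bases of the Duoxa1 start 0 bases were covered at days 14 and 33, 213 at day 64 and 29 in WT liver. Within 1000 bases of the RefSeq start of Duox1 no base was covered in any list.

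Over the whole Duox1 body, intervals covered 14.1 bases per kb at day 14, 14.7 at day 33, 49.1 at day 64 and 3.52 in WT liver. Over Duoxa1 they covered 17.8, 18.1 and 57.2 bases per kb at days 14, 33 and 64 and 12.2 in WT liver. The median of protein-coding genes was 30.8, 24.7 and 24.5 at these days and 17.0 in WT liver, so both genes were below it at days 14 and 33 and in WT liver and above it at day 64. The ratio of day 64 to WT liver was 13.95 for Duox1, against a median of 1.41 over 16012 genes, of which 0.5% had at least this ratio. For Duoxa1 it was 4.68, which 3.1% of genes reached. The ratio of day 64 to day 14 was 3.47 for Duox1 and 3.21 for Duoxa1, against a median of 0.81, and 1.73% and 1.94% of 16046 genes had at least as much. Intervals in the 754 bases that Duox1 and Duoxa1 share count in both bodies, so their values are not independent.

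Intervals of the 5 lists were joined into stretches where gaps were at most 500 bases, which gave 3 stretches of over 100 bases in Duox1. The first, at chr2:122312643-122313867, holds the Duoxa1 start and the 5′ end of Duox1, and was covered for 13.8% of its length at day 14, 15.1% at day 33, 54.0% at day 64 and 10.2% in WT liver. The second, at chr2:122324022-122324951 inside Duox1, was covered for 34.3%, 40.5% and 77.5% at days 14, 33 and 64 and for 6.6% in WT liver. The third, at chr2:122330395-122331287 inside Duox1, was covered for 10.3%, 7.6% and 53.3% at these days and for 0% in WT liver. Of the 4 lists compared, day 64 had the highest cover in all 3.

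**Figure D4:**
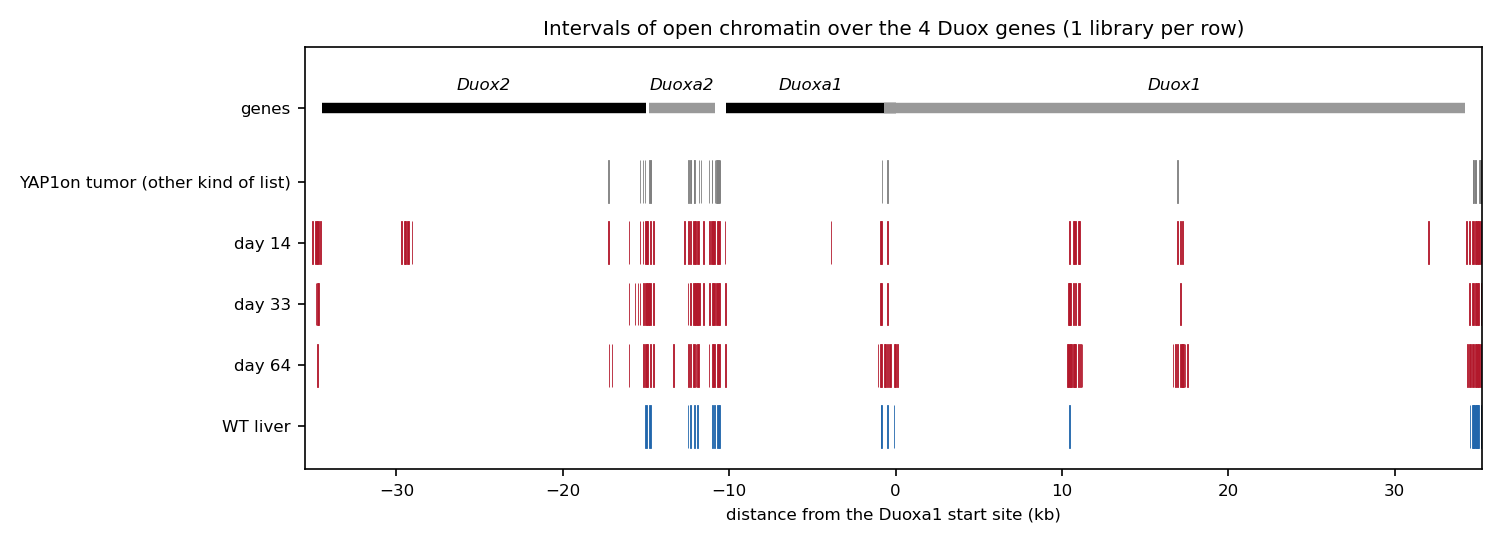
Intervals of open chromatin (vertical bars, 1 library per row) over the 4 Duox genes by distance from the Duoxa1 start (x axis, kb), with gene bodies on top, black on the minus and grey on the plus strand. The day 64 row is filled most at the Duoxa1 start and within Duox1, at 54.0%, 77.5% and 53.3% of the 3 stretches, against 10.2%, 6.6% and 0% in WT liver.

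The neighbouring pair differed from Duox1 and Duoxa1 between days 14 and 64, and against WT liver it moved the same way. Duox2 and Duoxa2 also lie head to head, 159 bases apart, and Duoxa2 was open in every list although its RNA was near 0. Its body had 223, 226 and 194 covered bases per kb at days 14, 33 and 64 and 99.9 in WT liver. Duox2 had 22.4, 10.3 and 8.62 at these days and 2.26 in WT liver, which at day 64 gives a ratio of 0.39 to day 14, against 3.47 for Duox1. The ratio of day 64 to WT liver was 3.82 for Duox2, which 4.6% of genes reached, and 1.94 for Duoxa2, which 21.65% reached.

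Nox4 had 544, 1098 and 893 covered bases within 1000 bases of its start at days 14, 33 and 64 and 682 in WT liver. Its body had 5.02, 11.1 and 9.52 bases per kb at these days and 6.29 in WT liver, a ratio of day 64 to day 14 of 1.89, which 4.46% of genes reached. Cybb went the other way, with 67, 51 and 0 covered bases around its start at days 14, 33 and 64 and 11 in WT liver. Its body had 21.7, 6.78 and 3.58 bases per kb at these days and 9.35 in WT liver, and the ratio of day 64 to day 14 of 0.17 was reached by 98.62% of genes. Ncf1 had 77.5, 30.3 and 25.5 bases per kb at days 14, 33 and 64 and 36.9 in WT liver, with a ratio of 0.33, reached by 95.04% of genes. Cyba was open throughout, at 168, 158 and 107 bases per kb at these days and 137 in WT liver. The macrophage content of the nuclei was not measured, and its part in these values was not tested.

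**Figure D5:**
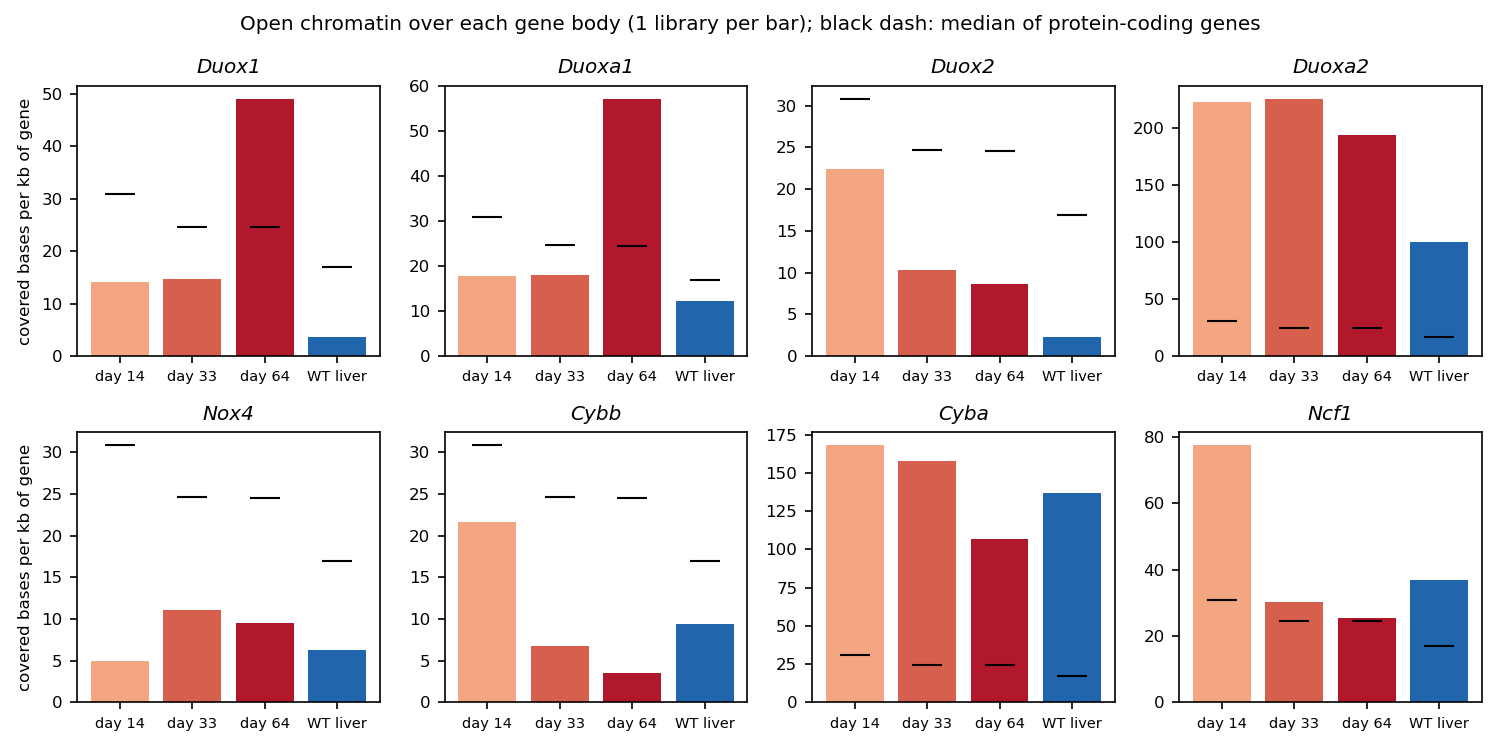
Bases covered by open chromatin per kb of gene body (y axis, a scale of its own for each gene) at days 14, 33 and 64 and in WT liver, 1 library per bar, with the median of protein-coding genes as a black dash. Duox1, with 14.1, 14.7, 49.1 and 3.52, and Duoxa1, with 17.8, 18.1, 57.2 and 12.2, are highest at day 64, while Cybb is highest at day 14, at 21.7.

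The 7 motifs listed here were searched on both strands of the promoter windows of all 8 genes. The Duoxa1 window held none of them. The Duox1 window, inside the annotated body, held a STAT6 match (TTC and GAA with 4 bases between them), TTCTCTCGAA, at position -67 from the RefSeq start. Of 32851 promoters of the same length, 7.0% also hold such a match. Nox4 held the PU.1 core GGAAGT at -217 (23.8% of promoters), and Cybb held an AP-1 match, TGANTCA, at -139 (7.8%). Duoxa2 held an AP-1 match at -168 and a TATA box, TATAAA, at -30 (13.6%). Duox2 held an HNF1 match, GTTAAT, at -115 (7.1%), and Cyba a TCF/LEF match, TCAAAG, at -68 (16.0%). No window held the TEAD motif GGAATG, which 14.7% of promoters hold. These matches describe letters and no binding.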

How the data were processed

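Per the submitters' processing notes, the RNA was processed with the tools kallisto 0.45.0 and sleuth, and the build was GRCm38.p6. The authors deposited 1 column per library. The deposited signal is read as scaled reads per base, since the files do not define it. Low values were whole multiples of one step in only 12.1% to 16.1% of cases (tolerance 0.02), so reads were not recovered. ATAC reads were handled with cutadapt, BWA, SAMtools and Picard on mm10, per the submitters' processing notes. Which program made the deposited intervals, and whether reads were shifted for transposase insertion, is not given in the sources used here. No other interval value was used.

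Libraries were put on one scale with median-of-ratios size factors (0.963 to 1.10). The mean of both libraries stood for each hbHep mouse, and genes with at least 10 in 3 of 14 samples were kept (17953). One model over the 4 groups was fitted to log2(value + 1) with limma 3.58.1 (R 4.3.3, trended eBayes), and p-values were adjusted by Benjamini-Hochberg over all genes tested at 0.05. Adjusted p-values in the text are from that model. Errors are SD over samples or SE of the fit, and intervals are 95%. After the main fit, the same procedure was run on simulated data with means and spread taken from that fit. Its outcome is not reported here. Samples of a tumor group come from 1 mouse code, so p-values between tumors measure spread between tumors. P-values of livers against tumors also count tumors of 1 mouse code as separate samples. The spread shared by the model includes those tumors, so these p-values do not rest on independent mice alone.

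All 8 genes are given. From each gene list all counts and up to 4 called genes with the largest difference are named, with others named where their values were seen, and the 5 nearest genes are those with the smallest root mean square difference. Some genes these rules select are not reported here. Stretches of open chromatin were defined after seeing the intervals. The members and lists were chosen with earlier results of these data known. Sequences are from RefSeq promoter tables, in which all 8 genes matched; protein sequences were not used here.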

Additional observations from a re-analysis of the deposited data

Results flagged for a closer look

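In the 16 groups of 4 tumors, 8 genes in each of 2 tumor groups, 1 tumor stood apart from the other 3 for 2 genes. Duoxa1 in day 6 tumor 4, at 3.03 against 1.02 to 1.15 in the others, lay away from its nearest neighbour by 0.935 of the whole range of the group. Cybb in day 6 tumor 1, at 359 against 434 to 448, lay away by 0.837 of the range. Chance gives such a gap in about 1 of 20 groups. The macrophage marker sum was also lowest in day 6 tumor 1, at 20441, and the part of that in its Cybb value was not tested.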

How the results depend on the processing

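Across the alternatives, 944 member differences stayed the same, 11 changed sign, 10 came to pass, 8 no longer passed and 6 moved. The same means an unchanged direction and side of the threshold. For Duox1 and Duoxa1 in hbHep comparisons, which carry no test, it means an unchanged direction and a limited change. The limit was the SE times the square root of 2. The 6 that moved are among these. Some of the 10 are of Duoxa1 in YAP1on tumors against FAH livers, for which no call is made. All 11 that changed sign had not passed in the model of the report. They were Duox2 in day 6 against YAP1on tumors (0.011 with a pseudocount of 0.5, 0.10 with quantile normalization, and between -0.42 and 0.30 when 1 sample was left out), and, with 1 sample left out, Ncf1 in hbHep livers against day 6 tumors (-0.45 to 0.071), Duox1 in YAP1on tumors against FAH livers (-0.30 to 0.069), and Duox2 in YAP1on (-0.19 to 2.22) and day 6 tumors (-0.20 to 2.21) against FAH livers. The 8 lost calls are all of Duoxa1 in day 6 tumors against FAH livers, where all its values are under the filter and no call is made. With a pseudocount of 10, Duox1 and Duoxa1 in hbHep against FAH livers were at 6.66 and 6.92. With quantile normalization Duox1 in day 6 tumors passed against FAH livers (-1.10, adjusted p = 0.0144). Duoxa1 in YAP1on tumors against FAH livers was then at -1.43, and no call is made for it there. Genes called in hbHep against FAH livers were 4340 with only these groups in the fit, against 6628. Of the 8 genes, 6, 5, 6, 6 and 6 had cover at their start above 0 and at least the median over all starts (YAP1on tumor, days 14, 33 and 64, WT liver). A median is by definition reached by at least as many starts as fall short of it. With only intervals of at least 150 bases the counts were 0, 2, 2, 1 and 0. In the same order, 0.0%, 28.9%, 28.4%, 27.4% and 21.0% of all starts then had any cover. The median interval width was 21, 67, 72, 70 and 61 bases in that order, so this cutoff removes most intervals of every list.

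With the replicate number as a block, limma called 3663 genes for day 6 against YAP1on tumors, 5985 for hbHep against FAH livers, 9145 and 7309 for hbHep livers against YAP1on and day 6 tumors, and 11600 and 10522 for YAP1on and day 6 tumors against FAH livers. Among members the block moved only Duoxa1 in YAP1on tumors against FAH livers across the threshold, at -1.08, and no call is made for it there. The numbers are only names: same-numbered samples correlated between -0.23 and 0.187, and 4 of 6 samples in hbHep against FAH livers and 0 in the other comparisons were closest to their own number. Depth in reads is unknown, which limits what can be said of values near 0.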
